A study of Mus musculus with 12 samples.

Results

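The 9 receptors described here carry the main systemic hormone signals to bone cells. They are the parathyroid hormone receptor Pth1r, the growth hormone receptor Ghr and the insulin receptor Insr at the cell surface, and the vitamin D receptor Vdr, the retinoid X receptor Rxra, the estrogen receptor Esr1, the glucocorticoid receptor Nr3c1 and the thyroid hormone receptors Thra and Thrb among the nuclear receptors. Each was taken from the count table by its gene name, 9 of the 56350 genes counted, and 9 of 9 were among the 16484 genes that had more than 10 counts in at least 3 libraries. RNAseq was done on 12 libraries of MPC2, clone 2 of a conditionally immortalized mouse mesenchymal stem cell line that divides at 33 °C. Undifferentiated cells kept at 33 °C (MSCs) and cells differentiated for 3 weeks at 37 °C with beta-glycerophosphate and ascorbic acid (osteocytes) were each given DMSO vehicle or 50 µmol/L FG-4592 (Roxadustat) for 48 hours, with 3 libraries per condition. FG-4592 inhibits the prolyl hydroxylases that mark the hypoxia-inducible factors (HIFs) for degradation. The comparisons asked how the receptors answered the drug in each cell type, whether the answers differed, and how the receptors differed between the cell types.

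Parathyroid hormone binds Pth1r, which signals through cyclic AMP and protein kinase A and adjusts both bone formation and the release of bone-resorbing signals. Growth hormone signals through Ghr, Jak2 and Stat5 and induces Igf1, and insulin signals through Insr, the Irs adaptors and Akt. The nuclear receptors are transcription factors switched by their ligands: Vdr, Thra and Thrb bind DNA mostly as partners of a retinoid X receptor, whereas Esr1 and Nr3c1 mostly bind as pairs of themselves.

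Library totals ranged from 52829185 to 68108470 counts (median 62272678.5), and TMM factors from 0.9474 to 1.057. Levels are given as CPM, a count relative to the TMM-scaled total of its library. A gene with no counts could still have held up to 3, or 0.0447 to 0.0545 CPM by library, a bound on counting error only. The 9 receptors had between 310 and 47160 counts in a library, well above this bound, and their coefficient of variation within a condition ran from 0.828% to 11.6% (median 4.61%). The labels do not say that the 3 libraries of a condition came from separate cultures, so p-values measure the spread between these libraries, which may be technical. Permuting 3 libraries against 3 for 1 gene exactly gives no two-sided p under 0.1, and p-values were therefore taken from edgeR's quasi-likelihood test over all genes, as a false discovery rate (FDR, Benjamini-Hochberg). A gene passed at an FDR under 0.05, and was called when the absolute log2 fold change was also above 1.

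The drug and the cell labels were checked against short gene lists. The summed level of 5 HIF targets (Ankrd37, Egln3, Bnip3, Pdk1 and Slc2a1) went from 76.0 to 82.8 CPM in vehicle-treated MSCs to between 1512 and 1554 CPM with FG-4592, and from 91.3 to 109 CPM to between 1331 and 1475 CPM in osteocytes. Of the 7 osteocyte markers that passed the filter, 4 were higher in vehicle-treated osteocytes than in MSCs, among them Dmp1 and Phex (log2 3.23 and 5.88), and 2, Ibsp and Alpl, were lower (−0.74 and −0.33), with a median of 0.45. Sost had 0 counts in every library and Mepe at most 2. The sum of the 9 osteocyte markers with a unique name was 197 to 210.5 CPM in vehicle-treated MSCs and 259.6 to 261.7 CPM in osteocytes, and 57.9 to 62.4 CPM and 102 to 123 CPM with the drug. The sum of the 8 MSC markers was 1789 to 1819 CPM in vehicle-treated MSCs, 1575 to 1610 CPM with the drug, 2100 to 2132 CPM in vehicle-treated osteocytes and 1728 to 1789 CPM with the drug. The 11 markers of other cell types summed to between 41.4 and 43.2 CPM in vehicle-treated MSCs and between 32.3 and 35.0 CPM with the drug, and to between 1509 and 2099 CPM in vehicle-treated osteocytes and between 1602 and 1876 CPM with the drug. Most of that came from the adipocyte genes Adipoq (79202 to 106392 counts in vehicle-treated osteocytes against 410 to 529 in MSCs) and Plin1 (16201 to 17686 against 14 to 26). With the drug 2 of the 7 that passed the filter fell in each cell type, Adipoq (−1.44) and the macrophage gene Lyz2 (−2.00) in MSCs, and their part in the receptors' responses was not tested.

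Levels were compared between receptors as CPM per kilobase of exon, since the exonic length of the 9 genes differs from 2925 bases for Pth1r to 13746 for Insr. In vehicle-treated MSCs the order of these levels was Ghr (31.5 ± 1.07, SD, n = 3), Pth1r (30.5 ± 0.252), Thra (29.5 ± 0.699), Rxra (27.9 ± 1.40), Nr3c1 (26.3 ± 0.500), Vdr (19.1 ± 0.766), Insr (5.09 ± 0.258), Esr1 (2.80 ± 0.115) and Thrb (0.716 ± 0.0532). The libraries of Thra overlapped those of Rxra, and those of Rxra overlapped Nr3c1, so that these neighbours were not apart in level. In vehicle-treated osteocytes the levels were 74.5 ± 3.16 for Ghr, 34.9 ± 3.87 for Rxra, 32.2 ± 1.47 for Nr3c1, 29.6 ± 1.81 for Pth1r, 23.1 ± 2.45 for Thra, 9.59 ± 0.565 for Insr, 8.93 ± 0.552 for Vdr, 8.18 ± 0.0992 for Esr1 and 0.963 ± 0.108 for Thrb. Here the libraries of Rxra, Nr3c1 and Pth1r overlapped from each to the next, as did those of Insr and Vdr. With FG-4592 the order in MSCs became Ghr, Nr3c1, Pth1r, Thra, Rxra, Vdr, Insr, Esr1 and Thrb, with an overlap of Pth1r and Thra, and in osteocytes Ghr, Nr3c1, Pth1r, Rxra, Thra, Vdr, Insr, Esr1 and Thrb, with an overlap of Rxra and Thra. Ghr stood at the top and Thrb at the bottom in all 4 conditions. Ghr lay at percentile 91.1 to 97.3 of the genes tested and Thrb at percentile 29.4 to 34.0.

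**Figure D1:**
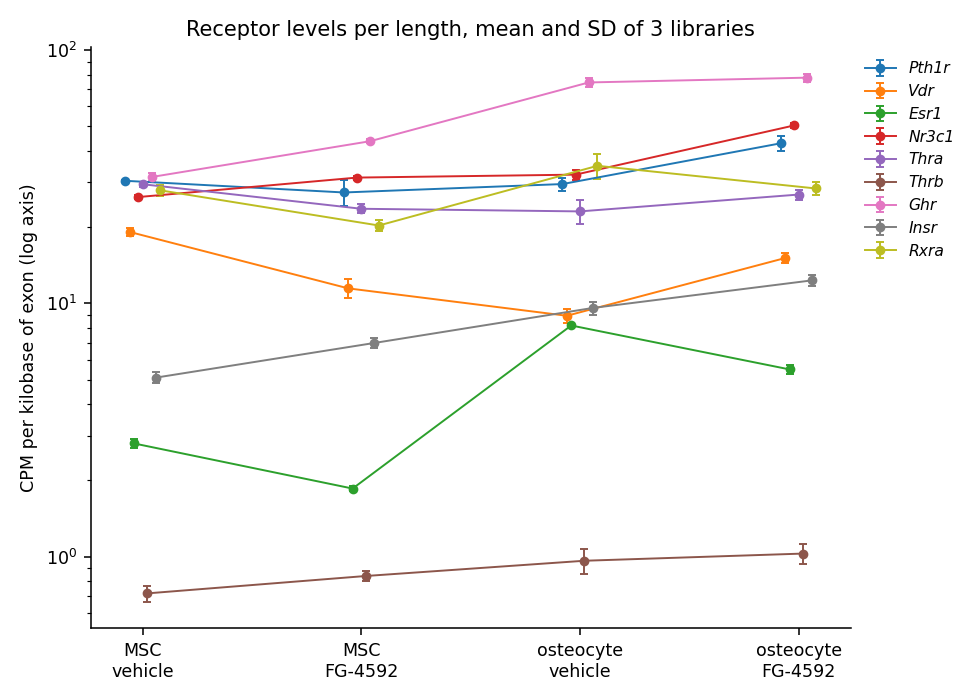
Mean level of each receptor in CPM per kilobase of exon (log axis) in the 4 conditions, with SD bars over 3 libraries. Ghr is the highest line and Thrb the lowest throughout, Esr1 climbs from 2.80 to 8.18 between vehicle-treated MSCs and osteocytes, and Vdr moves the other way, from 19.1 to 8.93.

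In MSCs, FG-4592 raised 3 receptors (Nr3c1, Ghr and Insr) and lowered 4 (Vdr, Esr1, Thra and Rxra), and 2 (Pth1r and Thrb) did not pass the test. Over all 16484 genes tested, 17.6% rose and 20.4% fell. In osteocytes, 5 receptors rose (Pth1r, Vdr, Nr3c1, Thra and Insr), 2 fell (Esr1 and Rxra) and 2 (Thrb and Ghr) did not pass, against 21.9% of all genes that rose and 22% that fell. Of the receptors, 0 of 9 were called in MSCs, where 9.29% of all genes were, and 0 of 9 in osteocytes, where 10.5% were. With 9 receptors, these counts are near those shares. In MSCs the treated and vehicle libraries did not overlap for 8 of 9 receptors (50.5% of all genes), and in osteocytes for 6 of 9 (51.8% of all genes). The median log2 fold change of the 9 receptors was −0.15 in MSCs and 0.22 in osteocytes, beside −0.045 and 0.0015 over all genes. Without regard to sign, the median was 0.45 in MSCs and 0.36 in osteocytes, beside 0.29 and 0.32 over all genes. In such bulk samples fewer cells of a type and less RNA per cell cannot be told apart.

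The response in osteocytes minus that in MSCs, an interaction contrast in the same fit, passed for 5 receptors. It was positive for 4 (Pth1r, Vdr, Nr3c1 and Thra; 13.3% of all genes) and negative for 1 (Ghr; 11% of all genes). Vdr was the 1 receptor called in this contrast, where 5.01% of all genes were. The other 4, Esr1, Thrb, Insr and Rxra, did not pass, with 95% intervals of the difference from −0.14 to 0.17 for Esr1, −0.27 to 0.08 for Insr, −0.05 to 0.38 for Rxra and, the widest, −0.50 to 0.22 for Thrb on the log2 scale. The median of the 9 differences was 0.16, and of all genes 0.048.

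**Figure D2:**
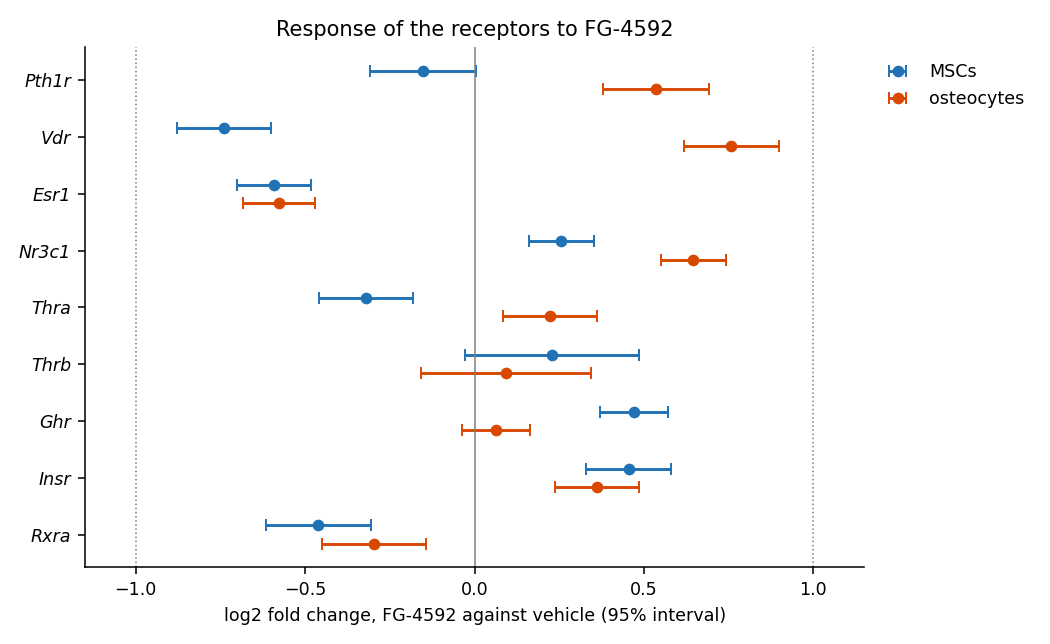
Log2 fold change of each receptor with FG-4592 against vehicle in MSCs (blue) and osteocytes (orange), with 95% intervals from edgeR, and dotted lines at the call threshold of 1. Vdr goes to −0.74 in MSCs and 0.76 in osteocytes, Pth1r and Thra also part, and the points of Esr1 (−0.59 and −0.58) lie on each other.

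Between the cell types in vehicle, 6 receptors were higher in osteocytes (Esr1, Nr3c1, Thrb, Ghr, Insr and Rxra; 26% of all genes), 2 were lower (Vdr and Thra; 24.9% of all genes) and Pth1r did not pass. Of these, 3 were called (Esr1 and Ghr higher, Vdr lower), against 15.9% of all genes, and 8 of 9 had libraries that did not overlap (56.9% of all genes). Under FG-4592, 9 of 9 receptors were higher in osteocytes (30.5% of all genes) and 0 were lower (25.3% of all genes), but Thra did not pass in 5 and Thrb in 15 of 22 alternatives, among them other scaling factors, DESeq2 and single libraries left out, so that the count was 7 to 9 over the alternatives run. Only Esr1 was then called, where 18.3% of all genes were, and 9 of 9 had libraries that did not overlap (64.1% of all genes). The treatment comparisons and the cell type comparisons share libraries, so their values are given side by side and not as separate evidence. Temperature and media changed together with differentiation and cannot be told apart from it. The adipocyte genes Adipoq and Plin1 were higher in osteocytes under either treatment, and their part in the receptors' cell type differences was not tested.

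**Figure D3:**
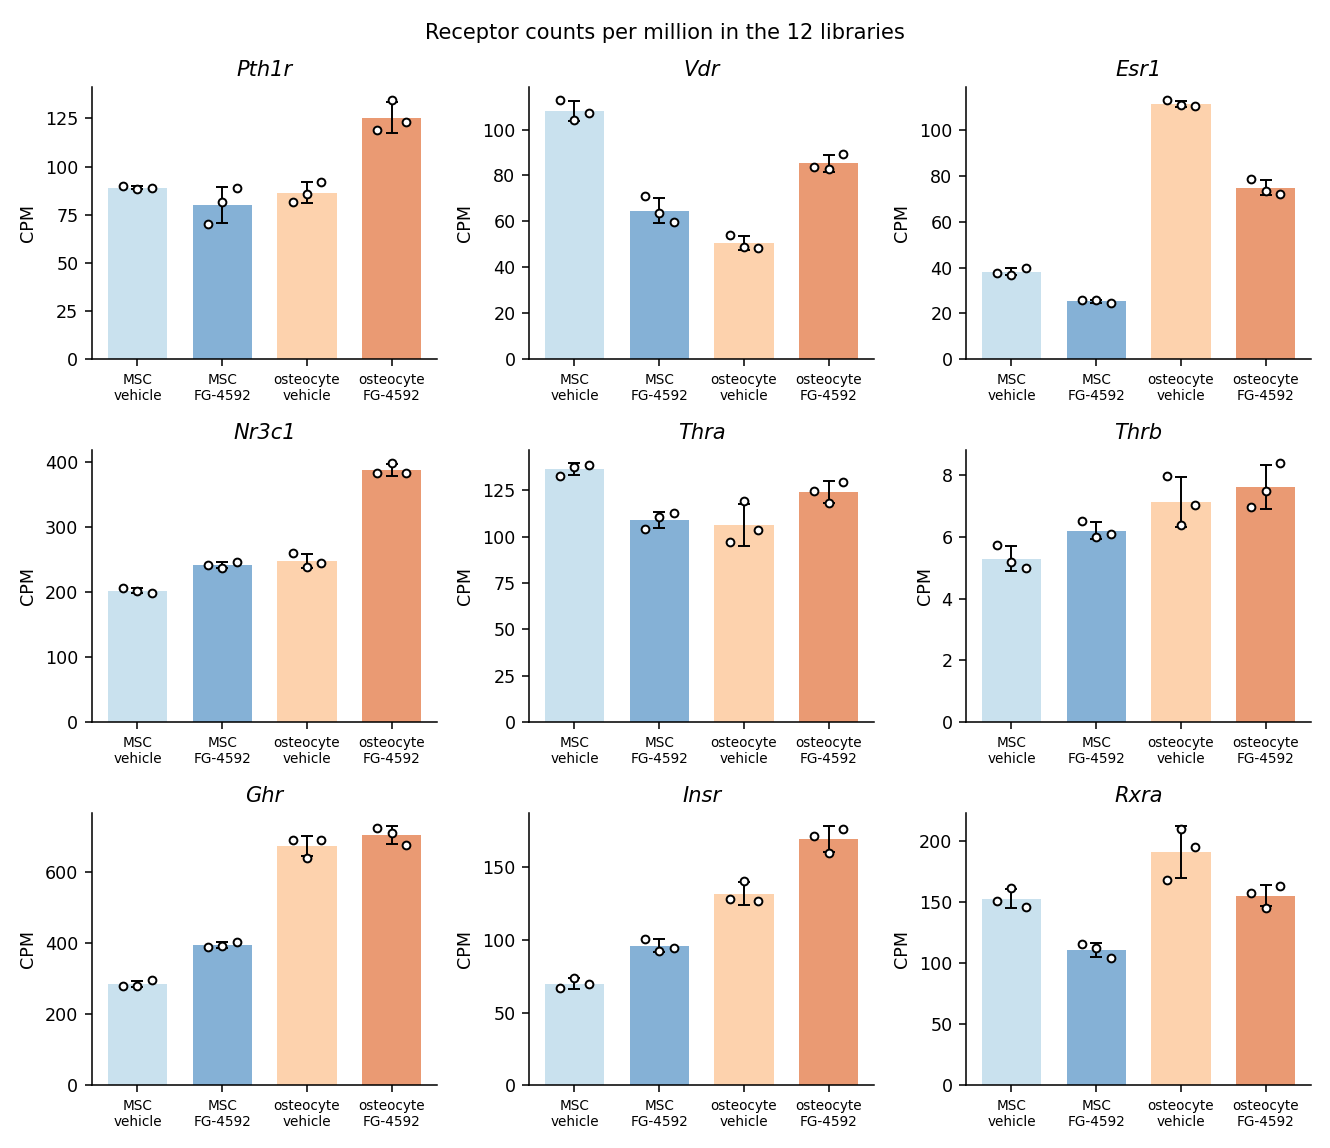
CPM of the 9 receptors in each of the 12 libraries (points), with the mean (bar) and SD (error bar) of the 3 libraries of a condition; each panel has its own axis from 0. The 3 points of a condition mostly lie close together, and Pth1r stands apart in FG-4592-treated osteocytes alone, at 119 to 134 CPM.

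Pth1r (ENSMUSG00000032492.14, chr9:110722085-110747145 of mm10, minus strand) is the receptor of parathyroid hormone and of its related peptide. Its level was 89.9, 88.4 and 89.1 CPM in the vehicle-treated MSCs and 70.3, 81.4 and 88.7 CPM in the FG-4592-treated MSCs. In osteocytes it was 81.6, 85.8 and 92.1 CPM with vehicle and 119, 134 and 123 CPM with FG-4592. The treated osteocytes were above every other library, while the other 3 conditions overlapped. Pth1r rose by 0.54 on the log2 scale in osteocytes (1.45-fold, SE 0.0736, FDR 1.77e-05), and its log2 fold change in MSCs was −0.15 (SE 0.0738, FDR 0.119). The difference between these responses was 0.69 (SE 0.104, FDR 0.000157), and the difference between the vehicle-treated cell types was −0.04 (95% interval −0.20 to 0.11, FDR 0.66). Without replicate 3 of the treated MSCs, the library nearest to the vehicle level, the value in MSCs was −0.23 (FDR 0.0231), and without replicate 1 of the treated MSCs it was −0.0669 (FDR 0.488). It also passed with library size alone as the scaling (−0.24, FDR 0.0179) and with no filter (−0.16, FDR 0.0462). Pth1r shares 95 exonic bases (3.25% of its length) with Myl3 on the other strand, and since pairs were counted for each gene they overlap, without strand, such reads were counted for both. Myl3 had 1 to 35 counts in a library. To show where HIF-type letters lie near the start sites, RefSeq promoter windows of GRCm38.p6, from 250 bases before to 50 after a start site, were searched on both strands for the core letters of the HIF-binding motif, ACGTG or GCGTG. Such windows were at hand for 6 of the 9 receptors, and 7 of their 12 windows held a match, beside 43.8% of 32851 windows of all genes. Of 3 Pth1r windows, that at chr9:110742561-110742860 (minus strand) held 1 match, 130 bases before the start site, in capitals:
Pth1r: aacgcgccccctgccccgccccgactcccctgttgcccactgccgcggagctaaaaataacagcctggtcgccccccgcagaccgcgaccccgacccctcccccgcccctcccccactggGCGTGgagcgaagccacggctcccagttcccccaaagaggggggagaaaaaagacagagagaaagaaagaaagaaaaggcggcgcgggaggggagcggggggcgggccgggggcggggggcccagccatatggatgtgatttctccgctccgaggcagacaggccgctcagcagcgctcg
A match is a description of these letters, not a site of binding, and counts per gene do not tell which start site was used.

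The genes around Pth1r are its G proteins, cyclic AMP enzymes, kinases and early targets, a list of 30 of which 26 passed the filter. In MSCs 3 rose and 8 fell, and in osteocytes 12 rose and 4 fell. Over all genes tested, 17.6% rose and 20.4% fell in MSCs, and 21.9% rose and 22% fell in osteocytes. These shares also stand beside the counts of each list below, and no list was tested against them. The largest rises in both cell types were those of Sik1, a salt-inducible kinase that protein kinase A restrains (log2 2.34 in MSCs and 3.12 in osteocytes), and of Arrb1, a beta-arrestin that uncouples receptors from their G proteins (1.73 and 2.04). Nr4a1, an orphan nuclear receptor induced early by parathyroid hormone, fell in both (−1.44 and −1.13). Rgs2, which turns off G protein signals, fell by 1.02 in MSCs and rose by 0.58 in osteocytes, with a difference of 1.604 (FDR 6.21e-08). Adcy3, an adenylyl cyclase, rose in osteocytes (1.35), its log2 fold change in MSCs was 0.81 (FDR 0.0565), and the difference did not pass (FDR 0.422). The ligands were near or at 0, with at most 7 counts of Pth and 0 of Pthlh in a library. Of the 26 genes, the response in osteocytes minus that in MSCs was positive and passed for 9 (13.3% of all genes). It was negative and passed for 1 (11% of all genes), Nr4a3 (0.76 in MSCs, which did not pass, and −1.02 in osteocytes).

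Ghr (ENSMUSG00000055737.12, chr15:3317760-3583492, minus strand) is the cytokine-type receptor of growth hormone. Its level was 280.2, 279.5 and 297 CPM in vehicle-treated MSCs and 391, 391 and 404 CPM in FG-4592-treated MSCs. Among osteocytes the values were 691, 641 and 691 CPM with vehicle and 726, 711 and 677 CPM with FG-4592. The treated MSCs were above the vehicle-treated MSCs, both lay below the 6 osteocyte libraries, and the treated and vehicle-treated osteocytes overlapped. Ghr rose by 0.47 in MSCs (1.39-fold, SE 0.0468, FDR 6.64e-07), and its log2 fold change in osteocytes was 0.06 (95% interval −0.04 to 0.16, FDR 0.303). The response was smaller in osteocytes by 0.41 (difference −0.41, SE 0.066, FDR 0.000297). Ghr was 2.36-fold higher in vehicle-treated osteocytes than in MSCs (log2 1.24, SE 0.0474, FDR 3.23e-12), and 1.78-fold higher with FG-4592 (log2 0.83, FDR 2.87e-10). Adipoq and Plin1 moved the same way between the cell types (log2 7.56 and 9.78), and their part in the difference was not tested. Both windows of Ghr at its start sites, at chr15:3583303-3583602 and chr15:3581793-3582092 (minus strand), held matches of the letters above, and on the reverse strand they read CACGC:
Ghr 1: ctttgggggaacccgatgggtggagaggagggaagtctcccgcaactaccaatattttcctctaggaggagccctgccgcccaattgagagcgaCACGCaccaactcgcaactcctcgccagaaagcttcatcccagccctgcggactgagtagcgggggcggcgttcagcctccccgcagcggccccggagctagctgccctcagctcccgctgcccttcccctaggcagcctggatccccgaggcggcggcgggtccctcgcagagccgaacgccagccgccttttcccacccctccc
Ghr 2: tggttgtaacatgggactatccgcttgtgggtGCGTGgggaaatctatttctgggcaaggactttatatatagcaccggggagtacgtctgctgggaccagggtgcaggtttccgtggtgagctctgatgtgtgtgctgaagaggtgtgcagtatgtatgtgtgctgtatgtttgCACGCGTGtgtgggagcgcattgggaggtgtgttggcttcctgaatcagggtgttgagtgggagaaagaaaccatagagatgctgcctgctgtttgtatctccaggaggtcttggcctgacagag
The first match lies 156 bases before its start site, and those of the other window lie 218, 75 and 72 bases before, the last 2 overlapping each other on opposite strands.

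Of the 17 genes listed for growth hormone signalling, 16 passed the filter. In MSCs 4 rose and 6 fell, in osteocytes 4 rose and 4 fell. Igf1, the growth factor that growth hormone induces, was 127 CPM in vehicle-treated MSCs and 584 CPM in osteocytes (log2 2.20, FDR 8.27e-14). With the drug it fell by 0.93 in osteocytes (FDR 2.74e-09), and its log2 fold change in MSCs was 0.06 (FDR 0.505). Stat5a, which carries the signal of Ghr to the nucleus, was also higher in vehicle-treated osteocytes (1.25). Igfals, a carrier of circulating Igf1, was higher in osteocytes (2.28) and fell in MSCs, from 26 to 44 counts to between 0 and 17, and its log2 fold change with the drug in osteocytes was −0.94 (FDR 0.127). Gh itself had 0 counts in every library. Socs3, a brake on Jak2 named here after its values were seen, rose by 0.36 in MSCs and 0.98 in osteocytes.

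Insr (ENSMUSG00000005534.10, chr8:3122061-3279617, minus strand) is the tyrosine kinase that binds insulin. Its level was 66.7, 73.7 and 69.5 CPM in vehicle-treated MSCs and 101, 92.1 and 94.8 CPM with FG-4592. In osteocytes it was 128, 141 and 127 CPM with vehicle and 172, 159.5 and 177 CPM with FG-4592. The 4 conditions formed 4 steps with no overlap. Insr rose by 0.45 in MSCs (1.37-fold, SE 0.0591, FDR 1.28e-05) and by 0.36 in osteocytes (1.28-fold, SE 0.0584, FDR 9.18e-05), and the difference of −0.09 did not pass (FDR 0.463). It was 1.88-fold higher in vehicle-treated osteocytes than in MSCs (log2 0.91, SE 0.0593, FDR 2.27e-09), under the threshold of a call. As for Ghr, the adipocyte genes moved with this difference and their part in it was not tested.

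Of 26 genes listed for insulin signalling, 23 passed the filter, and in osteocytes 10 rose and 3 fell, in MSCs 8 rose and 4 fell. Igf1r, the receptor of Igf1 and close relative of Insr, rose by 0.45 in MSCs and 1.21 in osteocytes. Foxo3, a transcription factor that insulin signals keep out of the nucleus, rose by 0.77 in MSCs and 1.11 in osteocytes. Per length, the level of Insr was 0.618 ± 0.0346 times that of Igf1r in vehicle-treated MSCs, 0.621 ± 0.0268 with FG-4592, 1.12 ± 0.0654 in vehicle-treated osteocytes and 0.624 ± 0.0429 with FG-4592 (SD, n = 3). Only vehicle-treated osteocytes had more Insr than Igf1r by this measure. The phosphatase gene Ptprf rose in osteocytes (log2 3.09), from 0.0992 to 0.853 CPM, and so stayed low, and its log2 fold change in MSCs was 0.28 (FDR 0.624). Enpp1, which makes pyrophosphate and binds the insulin receptor, and Irs2, an adaptor of the receptor, were higher in vehicle-treated osteocytes than in MSCs (2.19 and 1.66). Slc2a4, the insulin-regulated glucose transporter, had 0 to 2 counts in MSCs and 63 to 130 in osteocytes.

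Vdr (ENSMUSG00000022479.15, chr15:97854425-97910630, minus strand) is the receptor of calcitriol, the active form of vitamin D, which in bone cells regulates mineral genes. Its level was 113, 104 and 107 CPM in vehicle-treated MSCs and 70.9, 63.6 and 59.7 CPM with FG-4592. The osteocytes had 54.0, 49.0 and 48.4 CPM with vehicle and 83.9, 82.7 and 89.6 CPM with FG-4592. The 4 conditions did not overlap, and the treatment turned their order around: vehicle-treated MSCs were highest and vehicle-treated osteocytes lowest, with the treated cells between. Vdr fell by 0.74 in MSCs (0.599 of the vehicle level, SE 0.0653, FDR 1.61e-07) and rose by 0.76 in osteocytes (1.69-fold, SE 0.0658, FDR 1.03e-07). The difference between the responses was 1.50 (95% interval 1.30 to 1.70, FDR 1.54e-08). Vdr was 1.10 lower on the log2 scale in vehicle-treated osteocytes than in MSCs (log2 −1.10, SE 0.066, FDR 8.65e-10) but 0.40 higher under FG-4592 (SE 0.0652, FDR 6.92e-05). The window of Vdr at chr15:97908247-97908546 (minus strand) held 1 match of the letters ACGTG or GCGTG, 79 bases before the start site:
Vdr: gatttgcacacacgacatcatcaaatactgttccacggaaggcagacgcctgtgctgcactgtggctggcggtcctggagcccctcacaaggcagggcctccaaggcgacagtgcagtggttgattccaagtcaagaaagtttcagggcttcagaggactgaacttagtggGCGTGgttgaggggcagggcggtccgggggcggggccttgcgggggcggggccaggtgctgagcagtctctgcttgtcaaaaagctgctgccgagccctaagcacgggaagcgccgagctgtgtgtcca
This window is shown because Vdr had the largest difference between the 2 responses among the 9 receptors. Of the windows not shown, those of Thrb, which passed in neither drug response, held 3 and 2 matches. Those of Esr1 held 0 and 1, and those of Rxra, which fell in both cell types, 0 and 0. A link of such letters to the responses was not tested.

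The direct targets and the enzymes of vitamin D were mostly low. Of the 18 genes listed, 11 passed the filter, and Cyp24a1, the calcitriol-degrading enzyme that is the textbook target of Vdr, had at most 1 count in a library. Bglap and Bglap2, which encode osteocalcin, were higher in vehicle-treated osteocytes than in MSCs (4.57 against 0.232 CPM and 7.61 against 1.34 CPM). Both fell in osteocytes with FG-4592 (−1.28 and −1.43), and their log2 fold changes in MSCs were −0.43 and −0.60 (FDR 0.433 and 0.0852). The part of Vdr in these changes was not tested. Spp1, osteopontin, named after its values were seen, was 3157 CPM in vehicle-treated MSCs and rose by 0.52 with the drug, while in osteocytes (5509.6 CPM) its log2 fold change was −0.07 (FDR 0.545). Cyp27b1 and Cyp27a1, which hydroxylate vitamin D, were higher in vehicle-treated osteocytes (Cyp27a1 4.35 against 0.476 CPM), Cyp27b1 at only 24 to 29 counts. In all, 2 genes rose and 1 fell in MSCs, and 2 rose and 5 fell in osteocytes.

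Rxra (ENSMUSG00000015846.14, chr2:27676440-27762957, plus strand) is the shared partner of Vdr and of the thyroid hormone receptors. Its level was 151, 161 and 146 CPM in vehicle-treated MSCs and 116, 113 and 104 CPM with FG-4592. In osteocytes it was 168, 209.6 and 195 CPM with vehicle and 157, 145 and 163 CPM with FG-4592. In both cell types every treated library was below every vehicle library. Rxra fell by 0.46 in MSCs (0.726 of the vehicle level, SE 0.0729, FDR 9.51e-05) and by 0.30 in osteocytes (0.814, SE 0.0726, FDR 0.0032), and was 1.25-fold higher in vehicle-treated osteocytes than in MSCs (log2 0.32, FDR 0.00149). Per length there was more Rxra than Rxrb in every condition, 3.01 ± 0.202 times in vehicle-treated MSCs, 2.26 ± 0.110 with FG-4592, 3.77 ± 0.184 in vehicle-treated osteocytes and 2.57 ± 0.0514 with FG-4592, while Rxrg had at most 1 count in a library. The level of Vdr over that of Rxra was 0.687 ± 0.0531, 0.564 ± 0.025, 0.259 ± 0.0457 and 0.532 ± 0.0171 in the same order. The vehicle-treated osteocytes thus had the lowest Vdr relative to its partner.

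The retinoid list held 13 genes, of which 11 passed the filter. In MSCs 3 rose and 3 fell, and in osteocytes 4 rose and 1 fell. Rara and Rarg, retinoic acid receptors that also pair with Rxra, rose in both cell types by 0.20 to 0.54 and are named here after their values were seen. For Rarb, a retinoic acid receptor of the same list, the log2 fold changes were −0.46 in MSCs and −0.61 in osteocytes. Neither passed (FDR 0.54 and 0.376). The retinoic acid-making enzymes Aldh1a1 and Aldh1a2 fell in MSCs (−1.67 and −1.06) and did not pass in osteocytes (−0.11 and 0.60), with differences of 1.56 and 1.67. The retinoic acid-degrading enzyme Cyp26b1 rose in osteocytes (1.35), and its log2 fold change in MSCs was −0.50 (FDR 0.114).

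Esr1 (ENSMUSG00000019768.16, chr10:4611593-5005614, plus strand) is the estrogen receptor alpha. Its level was 37.7, 37.0 and 40.0 CPM in vehicle-treated MSCs and 25.8, 25.7 and 24.6 CPM with FG-4592. In the osteocyte libraries it stood at 113, 111 and 111 CPM with vehicle and 78.6, 73.7 and 72.3 CPM with FG-4592. The 4 conditions did not overlap, and the osteocytes were above the MSCs under either treatment. Esr1 fell by 0.59 in MSCs (0.663 of the vehicle level, SE 0.0518, FDR 1.46e-07) and by 0.58 in osteocytes (0.671, SE 0.0498, FDR 9.68e-08). It was 2.92-fold higher in vehicle-treated osteocytes than in MSCs (log2 1.55, SE 0.0512, FDR 5.79e-13) and 2.95-fold higher under the drug (log2 1.56, SE 0.0519, FDR 3.58e-13), the largest cell type difference of the 9 receptors. The adipocyte genes Adipoq and Plin1 were also higher in osteocytes (log2 7.56 and 9.78), and their part in the difference of Esr1 was not tested. Relative to Vdr, the per-length level of Esr1 was 0.146 ± 0.00783 in vehicle-treated MSCs and 0.917 ± 0.0441 in vehicle-treated osteocytes.

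Of 17 genes listed for estrogen, 9 passed the filter and 1 name was not in the table. Esr2, the other estrogen receptor, had at most 7 counts in a library. Gper1, a membrane receptor for estrogen, was 14 and 7.88 CPM in vehicle- and FG-4592-treated MSCs and 19.96 and 37.2 CPM in osteocytes. It fell by 0.83 in MSCs and rose by 0.90 in osteocytes, with a difference of 1.72 (FDR 5.24e-08), unlike Esr1. Greb1, an estrogen target in breast cells, was higher in vehicle-treated osteocytes (1.06) and did not pass with the drug. In all, 0 rose and 4 fell in MSCs, and 1 rose and 2 fell in osteocytes.

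Nr3c1 (ENSMUSG00000024431.15, minus strand of chromosome 18, from 39410545 to 39519421) binds glucocorticoids, which in excess suppress bone formation. Its level was 206, 202 and 198 CPM in vehicle-treated MSCs and 241, 237 and 245 CPM with FG-4592. In osteocytes it was 260.2, 238 and 244 CPM with vehicle and 382, 397 and 382 CPM with FG-4592. The treated osteocytes stood far above all other libraries, the vehicle-treated MSCs below all others, and the treated MSCs overlapped the vehicle-treated osteocytes. Nr3c1 rose by 0.26 in MSCs (1.19-fold, SE 0.0451, FDR 0.00027) and by 0.65 in osteocytes (1.56-fold, SE 0.0452, FDR 7.47e-09), a difference of 0.39 (SE 0.0637, FDR 0.000315). Between vehicle-treated cell types it was 0.29 higher in osteocytes (SE 0.0451, FDR 4.59e-05).

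Of the 19 genes listed for glucocorticoids, 18 passed the filter. In MSCs 9 rose and 5 fell, and in osteocytes 7 rose and 6 fell. The metal-binding metallothioneins Mt2 (2.95 in MSCs and 3.53 in osteocytes) and Mt1 (1.95 and 2.83) and the phosphatase gene Dusp1 (1.46 and 2.08) rose in both cell types. They are known to respond to glucocorticoids and to other stimuli. Per1, a clock gene, rose more in osteocytes (1.43) than in MSCs (0.42), by a difference of 1.01 that passed the test (FDR 1.35e-06). The co-chaperone gene Fkbp5, a textbook target that is named here after its values were seen, fell in both (−0.45 and −0.78), and for Tsc22d3, another such target, the log2 fold changes were 0.00 and 0.08 with neither passing. Hsd11b1, the enzyme that regenerates active glucocorticoid, fell by 0.70 in MSCs and rose by 1.25 in osteocytes, with a difference of 1.95 (FDR 0.000206). The mineralocorticoid receptor Nr3c2, which also binds glucocorticoids, was 1.08 CPM in vehicle-treated MSCs and 12.7 CPM in osteocytes (log2 3.54, FDR 2.79e-09).

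Thra (ENSMUSG00000058756.13, chr11:98740638-98769006, plus strand) encodes the thyroid hormone receptor alpha. Its level was 133, 137 and 139 CPM in vehicle-treated MSCs and 104, 111 and 112 CPM with FG-4592. Among osteocytes the values were 97.0, 119 and 103 CPM with vehicle and 125, 118 and 129 CPM with FG-4592. The vehicle-treated MSCs were above every other library, and in osteocytes the treated and vehicle libraries overlapped, through replicate 2 of the vehicle group. Thra fell by 0.32 in MSCs (0.800 of the vehicle level, SE 0.0653, FDR 0.000903) and rose by 0.22 in osteocytes (1.17-fold, SE 0.0653, FDR 0.0114), with a difference of 0.54 (SE 0.0923, FDR 0.000436). The rise in osteocytes did not pass without replicate 1 of the vehicle group (0.14, FDR 0.0942), without replicate 3 of the treated group (0.19, FDR 0.0502), or with library size alone as the scaling (0.12, FDR 0.161). Thra was lower in vehicle-treated osteocytes than in MSCs (−0.36, SE 0.0653, FDR 0.000251) and higher under the drug (0.19, FDR 0.0234). It shares 263 exonic bases (5.7% of its length) with the clock gene Nr1d1 on the opposite strand, which had 1437 to 4841 counts in a library. Nr1d1 fell by 0.39 in MSCs and rose by 0.89 in osteocytes, the directions of Thra. When an even share of the Nr1d1 reads was taken off Thra, an alternative chosen after seeing the data, the cell type difference under the drug no longer passed (0.14, FDR 0.095). Nor did it pass without replicate 1 of the treated MSCs (FDR 0.0952) or without replicate 1 or 3 of the treated osteocytes (FDR 0.058 and 0.0887), nor with library size alone as the scaling (FDR 0.102).

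Thrb (ENSMUSG00000021779.17, chr14:17660261-18038090, plus strand) encodes the thyroid hormone receptor beta and was the scarcest of the 9. Its counts were 316, 310 and 317 in vehicle-treated MSCs, 389, 403 and 390 with FG-4592, 529, 355 and 433 in vehicle-treated osteocytes and 453, 457 and 508 with FG-4592. The corresponding levels were 5.74, 5.18 and 4.98 CPM, 6.53, 6.00 and 6.09 CPM, 7.97, 6.38 and 7.04 CPM, and 6.97, 7.47 and 8.39 CPM. The treated MSCs were above the vehicle-treated MSCs, but the log2 fold change of 0.23 did not pass (SE 0.121, FDR 0.155), nor did that of 0.09 in osteocytes (SE 0.119, FDR 0.573). Thrb was higher in vehicle-treated osteocytes than in MSCs (0.43, SE 0.12, FDR 0.00708). Under the drug the difference was 0.29 (SE 0.119, FDR 0.0464), and it did not pass in 15 of 22 alternatives, among them those without any 1 of the 6 MSC libraries (FDR 0.055 to 0.12), without replicate 2 or 3 of the treated osteocytes (FDR 0.0637 and 0.186) and with DESeq2 (FDR 0.0553). Per length, Thra exceeded Thrb 41.4 ± 3.94 times in vehicle-treated MSCs, 28.2 ± 2.34 times with FG-4592, 24.3 ± 5.23 times in vehicle-treated osteocytes and 26.3 ± 2.13 times with FG-4592.

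Of the 17 genes listed for thyroid hormone, 12 passed the filter. Dio2, the deiodinase that makes active thyroid hormone, was 6.53 CPM in vehicle-treated MSCs and 963 CPM in osteocytes, and fell with FG-4592 in both (−2.50 and −3.045). The transporter gene Slc7a8 fell in MSCs (−3.49), from 37 to 57 counts to between 1 and 9, and its log2 fold change in osteocytes was 0.66 (FDR 0.277). Hr, a corepressor gene that thyroid hormone induces, rose by 2.75 in MSCs, whereas its log2 fold change in osteocytes was 0.30 (FDR 0.149), with a difference of −2.46. Crym, which binds thyroid hormone in the cell, fell in MSCs, from 3 to 8 counts to between 0 and 3, and in osteocytes (−1.53). Thrsp, a lipid-related gene that thyroid hormone induces, fell in osteocytes from 4088 to 5313 counts to between 1244 and 1694. In the MSC libraries Thrsp had 0 to 5 counts, and Tshr, the receptor of thyrotropin, 0 to 4 against 335 to 626 in vehicle-treated osteocytes. In all, 2 genes rose and 6 fell in MSCs, and 1 rose and 4 fell in osteocytes.

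**Figure D4:**
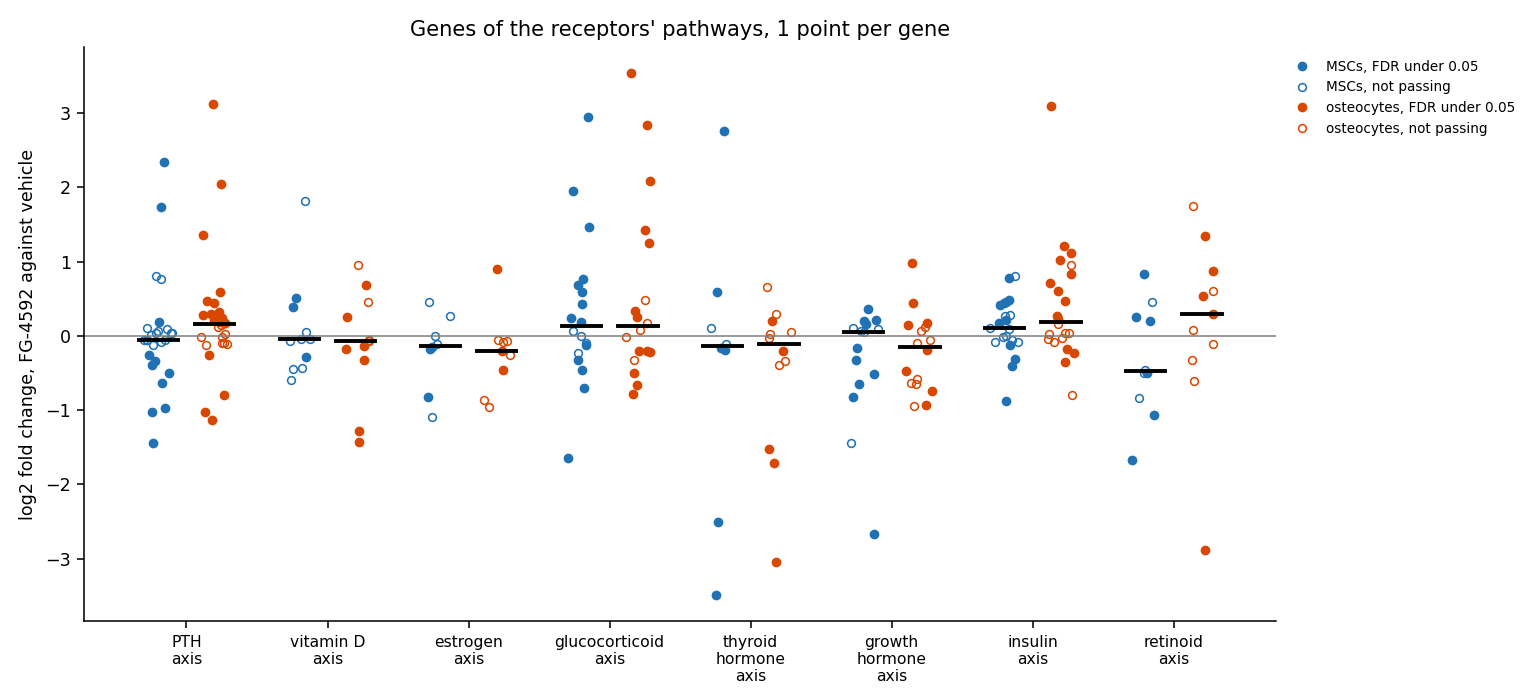
Log2 fold change with FG-4592 of the genes listed for each hormone, in MSCs (blue) and osteocytes (orange), filled where the FDR was under 0.05, with the median as a black bar. Genes with at most 3 counts in every library of a condition compared are left out (9 in MSCs and 1 in osteocytes); the medians lie near 0 except for the retinoid genes in MSCs, and single genes such as Sik1 (2.34 and 3.12) stand far from them.

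Beyond the 9, the table holds a list of 43 further nuclear receptors, of which 27 passed the filter. In MSCs 7 rose and 7 fell, and in osteocytes 10 rose and 3 fell. Rora, an orphan receptor tied to the clock, rose in both cell types (1.80 and 1.73). Ppard, a fatty acid sensor, rose by 0.16 in MSCs and 1.14 in osteocytes. Nr1h3, the oxysterol receptor, fell by 1.12 in MSCs and rose by 0.27 in osteocytes. Nr1d1, Nr1h3 and Nr4a2 (−0.50 and 0.44, named after its values were seen) fell in MSCs and rose in osteocytes.

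Of 18 other hormone and cytokine receptors, 13 passed the filter, with 2 that rose and 5 that fell in MSCs and 7 and 4 in osteocytes. Gipr, the receptor of a gut hormone, had 0 to 5 counts in the vehicle libraries of both cell types, and with the drug 163 to 253 in MSCs and 117 to 175 in osteocytes. Npr3, which clears natriuretic peptides, fell in both (−0.97 and −1.01). Lepr, the leptin receptor, was higher in vehicle-treated osteocytes (3.71) and fell with the drug in both cell types (−0.87 in MSCs and −1.14 in osteocytes). Of 21 coregulators, 20 passed the filter, and 0 rose and 7 fell in MSCs, while 8 rose and 3 fell in osteocytes; none of these changes reached a log2 fold change of 1 in either direction. Ncoa2, a coactivator of nuclear receptors, fell by 0.19 in MSCs and rose by 0.24 in osteocytes. Several genes named above share exonic bases with another gene and may hold some of its reads: Adcy3, Dusp1 and Mt2, Dio2, Stat5a, Irs2, Greb1, Spp1, Rora, Nr1h3, Nr1d1, Nr3c2 and Npr3.

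The genes whose log2 CPM followed each receptor most closely over the 12 libraries were looked up among 11252 protein-coding genes, each averaging 100 counts or more in at least 1 condition. For Vdr they were Ulk4 (Pearson r 0.96), the coactivator gene Ncoa2 (0.95) and the ciliary gene Bbs1 (0.92), and for Pth1r Spice1 (0.97), the growth factor gene Pgf (0.95) and Bbs2 (0.95). For Esr1 they were Serpine2 (0.9985), Dio2 (0.9972) and Ahsg (0.9966), and for Ghr the collagen gene Col15a1 (0.9964), Ralgapa2 (0.992) and Dgat2 (0.9918). For Insr they were Lrp5 (0.99), Mafk (0.99) and Zmiz1 (0.99), and for Nr3c1 Ankrd46 (0.99), Dzank1 (0.99) and Kctd11 (0.99). Rxra was followed by Sumf2 (0.97), Gstt1 (0.97) and Nfkb2 (0.97), Thra by Cul7 (0.92), Tead3 (0.91) and Ubald2 (0.91), and Thrb by Psd3 (0.95), Hdhd5 (0.95) and Znrf2 (0.93). Between receptors, the highest r was 0.96 for Ghr and Insr, followed by 0.88 for Nr3c1 and Insr, 0.88 for Thrb and Ghr, 0.87 for Thrb and Insr, 0.87 for Esr1 and Rxra, 0.83 for Vdr and Thra, and 0.82 for Pth1r and Nr3c1. The 12 libraries form 4 conditions, so these values mostly describe a shared order of 4 levels.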

How the data were processed

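The authors sequenced mRNA libraries as paired reads of 100 bases, mapped them to mm10 with STAR 2.7.2a and assigned unique reads to Gencode M22 genes with featureCounts (Subread 1.6.2) at a mapping quality of 10 or more, without strand and with each pair counted for every gene it overlapped. The deposited values are these raw counts per gene and library, and all 12 columns were used. Per the labels, the libraries fall into 4 conditions of 3, with no batch named. From the counts, genes whose count exceeded 10 in 3 or more libraries were fitted in edgeR 4.0.16 (R 4.3.3) with TMM factors, a coefficient per condition and the quasi-likelihood test (8 residual degrees of freedom), and FDRs by Benjamini-Hochberg over every gene fitted. SEs are the log2 fold change over the root of the F statistic. CPM used TMM-scaled totals, and exonic lengths and overlaps came from the exons in the count table (GenomicRanges 1.54.1).

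The receptors and lists were chosen with earlier results of these data known. The genes named from a list were those called in a drug response, in the difference of responses or between the vehicle-treated cell types, at most 3 per direction and averaging 20 counts or more in the highest condition. Others were named for their role, or for values that had been seen. A few genes of the lists are counted but not reported here by name. Genes most like a receptor were ranked by Pearson's r of log2 CPM (prior count 2). Promoter windows came from RefSeq. Alternatives were other scaling factors, filters, DESeq2 1.42.0, a replicate block, only the libraries compared, removal of genes sharing exonic bases, each library left out in turn and, added later, Thra less a share of the Nr1d1 reads. Figures were drawn in Python 3.11.15.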

Additional observations from a re-analysis of the deposited data

Results flagged for a closer look

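The response to FG-4592 differed between osteocytes and MSCs for 5 of the 9 receptors by the interaction contrast of edgeR's quasi-likelihood test, positive for 4 and negative for 1, beside 13.3% and 11% of all genes. On the log2 scale, the response in osteocytes minus that in MSCs was 1.50 for Vdr, 0.69 for Pth1r, 0.54 for Thra, 0.39 for Nr3c1 and −0.41 for Ghr. Vdr fell in MSCs and rose in osteocytes. Thra did so too, but its libraries overlapped in osteocytes, and its rise there (0.22, FDR 0.0114) did not pass in 3 of 22 alternatives, which were leaving out replicate 1 of the vehicle group (0.14, FDR 0.0942) or replicate 3 of the treated group (0.19, FDR 0.0502) and library size alone as the scaling (0.12, FDR 0.161). Nr3c1 rose in both, Pth1r passed the test in osteocytes but not in MSCs, and Ghr in MSCs but not in osteocytes. All 3 libraries of a condition lay on 1 side of those compared with them for Vdr and Nr3c1 in both cell types, as for 50.5% of all genes in MSCs and 51.8% in osteocytes.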

How the results depend on the processing

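The numbers of receptors past the FDR were 7 of 9 in MSCs (7 to 8 with each library left out, 6 to 8 otherwise), 7 in osteocytes (6 to 7 and 5 to 7), 5 for the difference of responses (5 with any library left out), 8 between vehicle-treated cell types and 9 between FG-4592-treated ones (7 to 9). Without genes that share exonic bases, 3 of 7 receptors passed for the difference, since Pth1r and Thra were not tested. The receptors called (0, 0, 1, 3 and 1) kept their number under every alternative run. With library size alone as the scaling, the median of all genes moved from −0.045 to −0.13 in MSCs and from 0.0015 to −0.0961 in osteocytes. The osteocyte responses of Thrb and Ghr, which do not pass, became −0.0057 and −0.0353, and that of Pth1r in MSCs passed at −0.24. The difference of responses of Esr1, near 0 throughout, was −0.0056 with RLE factors, −0.0053 in DESeq2, −0.0389 without genes sharing exonic bases and −0.0682 to 0.0402 with each library left out. Pth1r in vehicle-treated osteocytes against MSCs was 0.0371 without replicate 1 of the osteocytes and −0.0889 without replicate 3, the ends of its range with each library left out. The causes were not tested. For Thrb between FG-4592-treated cell types, the FDR was 0.0464, and 15 of 22 alternatives did not pass.

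The libraries carry replicate numbers 1 to 3, and with these as a block, Thrb in that comparison had an FDR of 0.0539 (log2 0.30) and no longer passed. No other receptor moved across the FDR threshold with the block, and no call of a receptor changed. Over all genes, 1444 were called in MSCs and 1678 in osteocytes with the block, against 1532 and 1732. Deviations of same-numbered libraries correlated at −0.135 to 0.0543 over 18 pairs, none over 0.1, and 1 of 12 libraries correlated best with its own number. The labels do not say whether same-numbered libraries were grown or prepared together, and so few libraries cannot show that they were not. Depth limits Thrb most, at 310 to 529 counts.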
